A study of Mus musculus with 13 samples.

Results

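Ly6a, which encodes a surface protein anchored in the membrane by a lipid, and 34 genes of the interferon response were followed in mouse embryonic stem cells exposed to a ligand of G-quadruplexes (G4). The 35 genes were listed by symbol with the strong rise of Ly6a in these samples already known, and all 35 were found among the 24079 genes of the count table. The cells were CGR8, an established mouse ES cell line grown on gelatin with serum and LIF, the cytokine that maintains self-renewal. Control cells (Ctrl) received 0.5% DMSO for 48 h, and treated cells (PhenDC3) received 10 µM of the G4 ligand PhenDC3 for 48 h. By the study's methods the treated cells carried the same share of DMSO. RNA-seq was available for 3 Ctrl and 3 PhenDC3 samples. Replication origins, mapped by sequencing of short nascent strands (SNS-seq), were available as peak lists for 3 Ctrl and 2 PhenDC3 samples. The study's methods call the 3 SNS-seq Ctrl samples biological replicates. The labels do not say whether the samples came from separate cultures, so the tests measure the spread between these samples.

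Interferons are secreted proteins that warn cells of infection. Sensors of foreign nucleic acid activate the factors Irf3 and Irf7, which switch on interferon genes. Secreted interferon binds its receptors, and the Jak kinases then activate a complex that holds Stat2 and Irf9, which binds the interferon-stimulated response element (ISRE) of target genes. Interferon gamma acts through the gamma-activated sequence (GAS), and Irf1 is among its targets. Pluripotent cells are known for a weak interferon response, and Ly6a is known both as a stem cell surface marker (Sca-1) and as a gene that interferon induces.

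Promoter sequences were taken from the RefSeq table for GRCm38.p6, which holds 250 bases before and 50 after each transcription start site (TSS) and matched 28 of the 35 genes. The genes Ly6a, Ly6e, Dhx58, Tmem173, Usp18, Parp14 and Ifi27 were not matched. The stretches below cover the 150 bases upstream of the TSS, 5′ to 3′ on the strand of the gene. They were chosen to show members that fell (Ddx58, Bst2, Irf1, Psmb8), a target with hardly any counts (Isg15) and a member that rose (B2m). Capitals mark the letters of GAAANNGAAA (ISRE) and of TTCNNNGAA (GAS), searched on both strands, except in Ddx58, where they mark a run of C that reads on the other strand as the G-run pattern, namely 4 runs of at least 3 G with loops of 1 to 7 bases. In Bst2 the capitals cover a GAS match overlapping the first of 2 ISRE matches, in Isg15 they cover 3 overlapping ISRE matches, in B2m 1 ISRE match, and in Irf1 and Psmb8 1 GAS match each.
Ddx58 (chr4:40239826-40239975, minus strand): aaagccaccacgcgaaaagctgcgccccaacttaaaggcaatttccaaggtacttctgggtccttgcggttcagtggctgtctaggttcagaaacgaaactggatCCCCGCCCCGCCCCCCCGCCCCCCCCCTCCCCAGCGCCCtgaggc
Bst2 (chr8:71537473-71537622, minus strand): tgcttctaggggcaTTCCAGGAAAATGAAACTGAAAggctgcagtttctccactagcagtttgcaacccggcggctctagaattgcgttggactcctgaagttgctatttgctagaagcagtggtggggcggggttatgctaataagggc
Irf1 (chr11:53769864-53770013, plus strand): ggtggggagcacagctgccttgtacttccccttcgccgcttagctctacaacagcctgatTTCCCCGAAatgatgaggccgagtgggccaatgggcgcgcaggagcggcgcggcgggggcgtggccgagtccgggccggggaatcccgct
Psmb8 (chr17:34198045-34198194, plus strand): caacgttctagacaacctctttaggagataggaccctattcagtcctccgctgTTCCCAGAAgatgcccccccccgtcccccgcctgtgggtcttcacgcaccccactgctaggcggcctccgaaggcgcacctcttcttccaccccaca
Isg15 (chr4:156200819-156200968, minus strand): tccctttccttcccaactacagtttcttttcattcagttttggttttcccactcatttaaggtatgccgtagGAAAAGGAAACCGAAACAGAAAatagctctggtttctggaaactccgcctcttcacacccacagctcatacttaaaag
B2m (chr2:122147537-122147686, plus strand): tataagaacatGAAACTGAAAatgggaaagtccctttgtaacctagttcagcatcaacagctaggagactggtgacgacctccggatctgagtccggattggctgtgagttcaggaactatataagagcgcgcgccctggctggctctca

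The RNA-seq libraries held 22232014 to 29486502 counts on genes. Rn45s, the precursor of ribosomal RNA, took 2.55% to 5.70% of the counts in the Ctrl libraries and at most 1.43% in the PhenDC3 libraries. Levels are given as CPM, the counts per 1000000 counts of the library, with library sizes scaled by relative log expression. The ES cell markers Pou5f1, Nanog, Sox2, Esrrb, Klf4, Zfp42 and Tfcp2l1 were all expressed. Their summed level was 4296 to 4595 CPM in Ctrl and 5360 to 5721 CPM in PhenDC3. Among the markers of other cells, Ptprc (blood) had at most 3 counts in a library and Dcn (fibroblasts) had a count of 0 in all 6, while Pecam1 (endothelium, also found on ES cells) lay at 55.6 to 89.9 CPM, Pdgfra at 6.70 to 21.6 CPM and Thy1 at 1.76 to 5.90 CPM. The same scaled CPM is used below. Changes are log2 fold changes of PhenDC3 over Ctrl with their standard error (SE), from edgeR's quasi-likelihood fit over 13972 genes, and a gene was called at a Benjamini-Hochberg adjusted p of at most 0.05.

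Ly6a lay at 4.34, 3.65 and 3.20 CPM in the Ctrl samples and at 74.3, 90.04 and 79.6 CPM in the PhenDC3 samples. The raw counts were 120, 80 and 74 against 2143, 2153 and 2192. The groups stood far apart and the 3 samples of each lay close together. The log2 fold change was 4.44 ± 0.16 (SE), or 21.7-fold, which ranked 11 from the top among the 13972 genes. It ranged from 4.33 to 4.56 over the 10 alternative settings. The members were listed because of this rise, so no p is attached to it. Per kilobase of exon, Ly6a went from rank 18 to rank 4 among the 35 genes, from 3.72 to 81.2 RPKM (here the scaled CPM per kilobase of exon). The gene lies at chr15:74994877-74998031 on the minus strand.

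**Figure D1:**
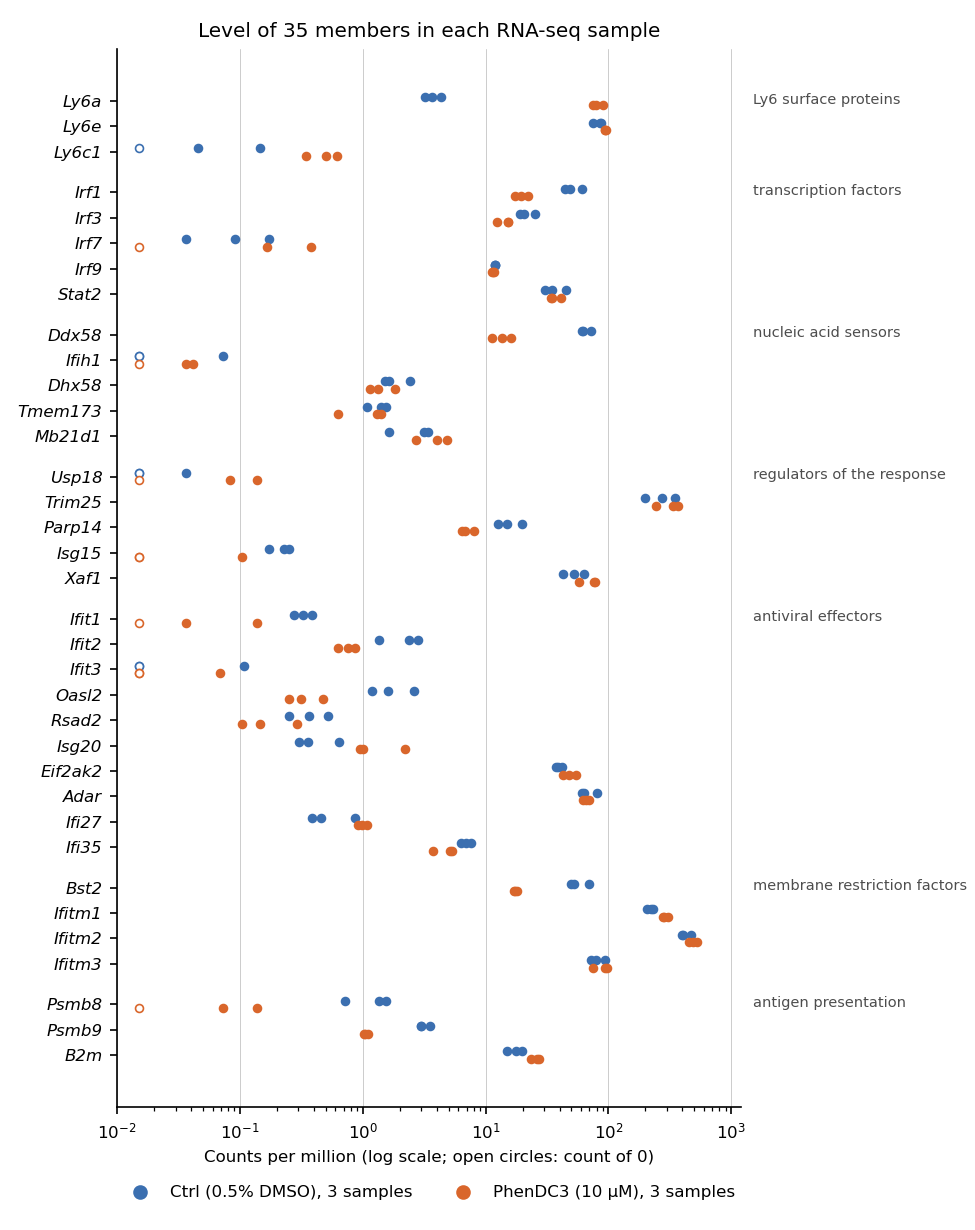
Level of each of the 35 genes in each RNA-seq sample, in CPM on a log axis, with 3 Ctrl samples in blue and 3 PhenDC3 samples in orange, grouped by role. Open circles at the left stand for a count of 0. Ly6a moved from 3.20 to 4.34 CPM in Ctrl to 74.3 to 90.04 CPM in PhenDC3, while Ddx58, Bst2, Irf1 and Psmb8 lay lower in every PhenDC3 sample than in any Ctrl sample.

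The 34 other genes did not follow Ly6a as a group. Of the 26 that passed the count filter, 3 were higher (Isg20, Ifitm1 and B2m), 10 were lower (Irf1, Irf3, Ddx58, Parp14, Ifit2, Oasl2, Ifi35, Bst2, Psmb8 and Psmb9) and 13 were not called. Over all genes tested, 18.0% were called higher, 18.7% lower and 36.8% in either direction, against 11.5% of the 26 genes called higher and 38.5% called lower. The median log2 fold change of the 26 was -0.06, against 0.01 for all genes tested. The groups did not overlap for 17 of the 26, and for 50.6% of all genes tested. The 8 others (Ly6c1, Irf7, Ifih1, Usp18, Isg15, Ifit1, Ifit3 and Rsad2) had too few counts to be tested. In bulk RNA, fewer cells of a type and less RNA per cell cannot be told apart.

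**Figure D2:**
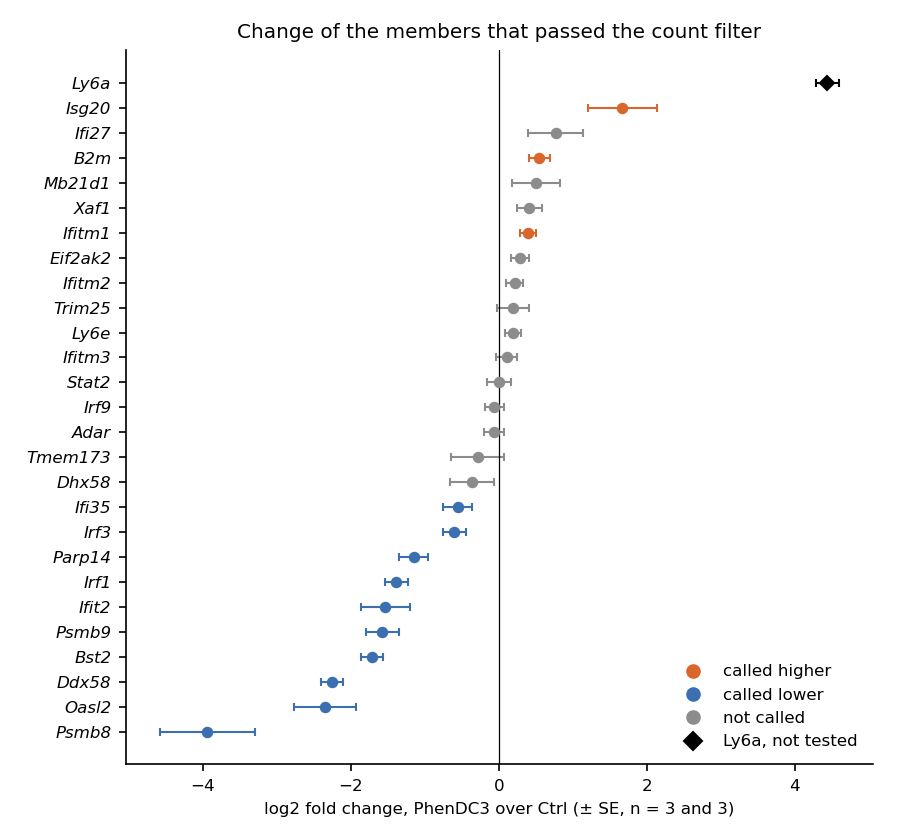
Log2 fold change of PhenDC3 over Ctrl for Ly6a and the 26 other members that passed the count filter, with bars of 1 SE from the edgeR fit (3 samples per group). Ly6a (black diamond, not tested) stands apart at 4.44, 3 members are called higher (orange), 10 lower (blue) and 13 are not called (grey).

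Among the transcription factors, Irf1 and Irf3 fell and Stat2 and Irf9 did not pass the test. Irf1 lay at 49.1, 44.0 and 60.8 CPM in Ctrl and at 19.5, 17.3 and 22.1 CPM in PhenDC3, a log2 fold change of -1.38 ± 0.15 (SE, adjusted p = 0.000296). Irf3, which nucleic acid sensors activate, lay at 19.2, 25.1 and 20.5 CPM in Ctrl and at 15.2, 15.2 and 12.4 CPM in PhenDC3, a log2 fold change of -0.60 ± 0.15 (SE, adjusted p = 0.0142). Every PhenDC3 sample lay below every Ctrl sample for both. The call of Irf3 was lost without PhenDC3 replicate 3 (adjusted p = 0.056). Stat2 and Irf9 had log2 fold changes of 0.00 ± 0.16 and -0.06 ± 0.13 (SE). The exons of Stat2 overlap those of Apof on the same strand by 220 bases.

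Of the 4 tested members that sense nucleic acid or relay the signal, Ddx58 was called. It encodes RIG-I, which binds viral RNA in the cytosol, and it lay at 62.3, 61.4 and 71.5 CPM in Ctrl and at 13.6, 11.3 and 16.1 CPM in PhenDC3. The log2 fold change was -2.25 ± 0.15 (SE, adjusted p = 5.34e-05), a level 4.76-fold lower, and the groups lay far apart. It stayed called in all 10 alternatives, with log2 fold changes of -2.38 to -2.13. The DNA sensor cGAS (Mb21d1), its adaptor STING (Tmem173) and the RIG-I relative LGP2 (Dhx58) were not called. Their mean levels were 2.73, 1.35 and 1.85 CPM in Ctrl and 3.89, 1.11 and 1.44 CPM in PhenDC3, and their groups overlapped.

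Of the regulators of the response, Parp14 fell. This ADP-ribosyltransferase lay at 14.8, 12.7 and 19.8 CPM in Ctrl and at 6.83, 6.40 and 8.10 CPM in PhenDC3, without overlap, a log2 fold change of -1.15 ± 0.19 (SE, adjusted p = 0.00227). Trim25, a ubiquitin ligase that acts on RIG-I, was among the more abundant of the genes at 200 to 349 CPM in Ctrl and 242 to 365 CPM in PhenDC3, and its groups overlapped. Xaf1, which binds an inhibitor of apoptosis, lay at 42.9 to 63.2 CPM in Ctrl and 57.8 to 77.7 CPM in PhenDC3 (log2 fold change 0.42 ± 0.17, adjusted p = 0.083).

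The antiviral effectors moved in both directions. Oasl2, of the oligoadenylate synthetase family, lay at 1.19, 1.60 and 2.59 CPM in Ctrl and at 0.312, 0.251 and 0.472 CPM in PhenDC3 (log2 fold change -2.35 ± 0.41 SE, adjusted p = 0.00274). Ifit2, an RNA-binding inhibitor of translation, lay at 2.39, 1.37 and 2.81 CPM in Ctrl and at 0.763, 0.627 and 0.871 CPM in PhenDC3 (log2 fold change -1.53 ± 0.33 SE, adjusted p = 0.00743). Isg20, an RNA exonuclease, went the other way. It lay at 0.362, 0.638 and 0.303 CPM in Ctrl and at 1.01, 2.22 and 0.944 CPM in PhenDC3, a log2 fold change of 1.67 ± 0.47 (SE, adjusted p = 0.0214). Its call was lost without Ctrl replicate 1 (adjusted p = 0.0825), Ctrl replicate 3 (0.0512) or PhenDC3 replicate 2 (0.0755).

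Ifi35 lay at 6.33, 7.61 and 6.92 CPM in Ctrl and at 5.31, 5.14 and 3.74 CPM in PhenDC3 (log2 fold change -0.56 ± 0.19 SE, adjusted p = 0.0493). This call sat at the threshold and was lost in 7 of the 10 alternatives, which were the removal of any single library (adjusted p = 0.0654 to 0.16) and the fit without a count filter (0.0568). Eif2ak2, the kinase PKR that stops translation on viral RNA, had a log2 fold change of 0.29 ± 0.12 (SE, adjusted p = 0.0909) with groups that did not overlap. The RNA editing enzyme Adar had -0.06 ± 0.13 (SE) and Ifi27 had 0.77 ± 0.37 (SE), and neither was called. The exons of Ifi27 overlap those of Ifi27l2a on the opposite strand by 103 bases, and those of Adar overlap Chrnb2 by 8 bases.

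Of the restriction factors of the membrane, Bst2 fell and Ifitm1 rose slightly. Bst2 encodes tetherin, which holds budding virus at the cell surface, and lay at 49.2, 69.5 and 52.3 CPM in Ctrl and at 16.9, 18.1 and 17.4 CPM in PhenDC3. The log2 fold change was -1.71 ± 0.15 (SE, adjusted p = 0.000112), and the PhenDC3 samples lay close together. Ifitm proteins block the fusion of virus with endosomes, and Ifitm2, Ifitm1 and Ifitm3 were per kilobase the most abundant of the 35 genes in both groups, at 674, 253 and 127 RPKM in Ctrl and 782, 334 and 137 RPKM in PhenDC3. Ifitm1 lay at 229, 205 and 222 CPM in Ctrl and at 277, 303 and 285 CPM in PhenDC3, a log2 fold change of 0.40 ± 0.105 (SE, adjusted p = 0.0169). Its call was lost without Ctrl replicate 2 (adjusted p = 0.051), PhenDC3 replicate 1 (0.0556) or PhenDC3 replicate 2 (0.0612). Ifitm2 and Ifitm3 had log2 fold changes of 0.21 ± 0.115 and 0.11 ± 0.14 (SE) and were not called. The Ifitm genes resemble each other, so reads that fit several of them could have been divided or dropped in counting.

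The antigen presentation members split. Psmb8 and Psmb9 encode catalytic subunits of the immunoproteasome, which cuts proteins into the peptides shown to T cells, and both fell. Psmb8 had 20, 30 and 36 counts in Ctrl and 4, 0 and 2 counts in PhenDC3, or 0.724, 1.37 and 1.56 CPM against 0.139, 0 and 0.0726 CPM. The log2 fold change was -3.94 ± 0.64 (SE, adjusted p = 0.00185), and with so few counts it ranged from -4.79 (without PhenDC3 replicate 1) to -3.44 over the alternatives. Psmb9 lay at 2.97, 3.51 and 2.98 CPM in Ctrl and at 1.11, 1.05 and 1.02 CPM in PhenDC3 (log2 fold change -1.57 ± 0.23 SE, adjusted p = 0.00102). B2m, the light chain of class I MHC molecules, lay at 19.7, 17.6 and 14.9 CPM in Ctrl and at 23.2, 27.3 and 26.0 CPM in PhenDC3 without overlap. Its log2 fold change was 0.55 ± 0.14 (SE, adjusted p = 0.0143), and B2m stayed called in all 10 alternatives.

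The classic interferon targets Isg15, Ifit1, Ifit3 and Rsad2 were close to the floor of the libraries. Ifit1 had 9, 6 and 9 counts in Ctrl and 4, 0 and 1 in PhenDC3, Isg15, a ubiquitin-like modifier, had 7, 5 and 4 counts against 3, 0 and 0, and in both the groups did not overlap. Rsad2 (viperin) had 7, 8 and 12 counts against 3, 7 and 4. Irf7 summed to 7 counts in Ctrl and 15 in PhenDC3, and Usp18, Ifit3 and the RNA sensor MDA5 (Ifih1) had at most 4 counts in any library. Without the count filter Ifit1 was called lower (log2 fold change -2.34, edgeR adjusted p = 0.0438), and DESeq2 did not call it (adjusted p = 0.0724). Isg15 was called by neither (adjusted p = 0.0838 and 0.147).

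The Ly6 genes next to Ly6a were hardly expressed, with the exception of Ly6e. Ly6e lies 34973 bp from Ly6a and had 75.3 to 86.2 CPM in Ctrl and 93.8 to 94.8 CPM in PhenDC3, a log2 fold change of 0.19 ± 0.10 (SE, adjusted p = 0.168). Ly6c1, 45987 bp away on the other side, had 4, 1 and 0 counts in Ctrl and 10, 12 and 17 counts in PhenDC3 without overlap. It was not tested in the filtered fit. Without the filter its log2 fold change was 2.75 (edgeR adjusted p = 0.0135), and DESeq2 gave 2.87 (adjusted p = 0.016). Ly6i, the nearest gene at 11443 bp, had 1, 0 and 0 counts against 3, 7 and 13. These genes are close relatives of Ly6a, whose own counts were 2143 to 2192 per PhenDC3 library, and how the counting placed reads that fit several of them was not given in the sources used here.

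The next genes outward, Ly6c2, Ly6f and 2010109I03Rik, had at most 2 counts, at most 2 counts and 13 to 32 counts in a library. Within 500 kb of Ly6a, 9 of 25 genes were tested, of which Mroh4 and Jrk were higher and Them6 was lower, a share of 33.3% called against 36.8% of all genes tested. Of the wider Ly6 family, 17 of 18 listed genes were in the table and 6 were tested. In each direction 16.7% of the tested ones were called, close to the 18.0% higher and 18.7% lower over all genes. Cd59a, an inhibitor of complement, was higher (5.10, 5.24 and 5.19 CPM against 8.19, 10.7 and 13.3 CPM, log2 fold change 1.05 ± 0.20 SE, adjusted p = 0.00377), and Ly6g6d was lower (log2 fold change -1.07 ± 0.23 SE, adjusted p = 0.00663). With Ctrl replicate 3 left out, 2 genes of the family were called higher.

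The rest of the interferon pathway moved in both directions, by list. Of 84 further genes, 83 were in the table and 63 tested. Of these, 5 were higher (7.94%, against 18.0% of all genes tested) and 22 lower (34.9%, against 18.7%). Their median log2 fold change was -0.22 against 0.01 for all genes tested. The receptors and Jak-Stat genes had 2 higher and 2 lower of 15 (13.3% each, median log2 fold change -0.20). The genes that lead to interferon production had 2 higher and 3 lower of 13 (15.4% and 23.1%, median 0.22). Both lists stood close to the shares over all genes tested. The 2 lists of targets and antigen presentation held the other 17 lower genes. The number called higher was 3 without Ctrl replicate 1 or without PhenDC3 replicate 1. The 7 interferon genes that were listed had no counts: Ifnb1, Ifna1, Ifna2, Ifna4, Ifng, Ifnk and Ifne, and the chemokine Ccl5, had a count of 0 in all 6 libraries. A count of 0 allows up to 3 counts per library at 95% confidence, or 0.104 to 0.137 CPM, for counting error alone. Cxcl10, a chemokine that interferon induces, had a log2 fold change of 0.80 ± 0.48 (SE, adjusted p = 0.219).

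The receptor subunits for type I interferon were expressed in both groups and were not called. Ifnar1 lay at 52.7 to 59.1 CPM in Ctrl and 46.1 to 48.8 CPM in PhenDC3 (log2 fold change -0.21 ± 0.10 SE, adjusted p = 0.133), and Ifnar2 had 0.23 ± 0.23 (SE, adjusted p = 0.447). The kinase Jak2 rose from 5.36, 4.92 and 5.62 CPM to 13.4, 12.7 and 11.5 CPM (log2 fold change 1.24 ± 0.15 SE, adjusted p = 0.000443). Il10rb, which is a subunit of the receptors for interferon lambda, also rose (log2 fold change 1.12), while the gamma receptor subunit Ifngr2 and the feedback inhibitor Socs3 fell (both -0.78). In the list of genes that lead to interferon production, the adaptors Mavs and Traf3 rose (0.57 and 0.65). The call of Mavs was lost without Ctrl replicate 1 or 2 or PhenDC3 replicate 1 or 3 (adjusted p = 0.0767 to 0.122), and that of Il10rb without Ctrl replicate 1 or 3 or PhenDC3 replicate 2 (0.051 to 0.0846). Tlr3, a receptor for viral RNA, and Irf8 fell (-1.77 and -1.71), as did Zbp1, a sensor of Z-form nucleic acid, from 2.35, 2.42 and 3.85 CPM to 0.139, 0.251 and 0.218 CPM (log2 fold change -3.81 ± 0.38 SE, adjusted p = 0.000178).

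A further list of interferon-stimulated genes had 25 tested genes, with a median log2 fold change of -0.72. Of these, 1 was higher (4%, against 18.0% of all genes tested) and 10 were lower (40%, against 18.7%). The higher gene was Oas1a (0.69 ± 0.20 SE, adjusted p = 0.0242), while its relative Oas2 was lower (-1.19). The call of Oas1a was lost without Ctrl replicate 3 (adjusted p = 0.0523) or PhenDC3 replicate 1 (0.114). The GTPases of cell-autonomous immunity that were called all fell: Irgm1 from 12.5, 10.6 and 13.7 CPM to 2.22, 2.47 and 2.51 CPM (-2.35 ± 0.18 SE, adjusted p = 6.86e-05), Igtp by a log2 fold change of -1.77, and Gbp3 and Gbp7 by -2.04 and -2.13. Gbp2 had -2.29 and lay at 0.347, 0.376 and 2.11 CPM in PhenDC3, where replicate 3 stood apart. Without that library its log2 fold change was -3.68, and without PhenDC3 replicate 1 its call was lost (adjusted p = 0.0513). The ADP-ribosyltransferases Parp9 (-1.25) and Parp12 (-1.18), the Parp9 partner Dtx3l (-1.74) and the ATPase Tor3a (-1.36) were lower as well.

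Antigen presentation showed the most one-sided counts of these lists, with a median log2 fold change of -0.93. Of 9 tested genes, 7 were lower (77.8%, against 18.7% of all genes tested) and none higher (against 18.0%). By edgeR the 2 others, Tap1 and H2-D1, had an adjusted p of 0.893 and 0.217, and the count of higher genes was also 0 at an unadjusted p of at most 0.05 and by DESeq2. Psmb10, the third catalytic subunit of the immunoproteasome, lay at 29.9, 32.5 and 27.7 CPM in Ctrl and at 8.95, 9.66 and 9.11 CPM in PhenDC3 (log2 fold change -1.70 ± 0.12 SE, adjusted p = 6.86e-05). Its activators Psme1 and Psme2 had -0.50 and -0.93, the former not called without PhenDC3 replicate 1 (adjusted p = 0.0596). The class I heavy chain H2-K1 lay at 13.2, 16.5 and 10.6 CPM in Ctrl and at 4.34, 5.85 and 3.74 CPM in PhenDC3 (-1.54 ± 0.23 SE, adjusted p = 0.00112). The peptide transporter subunit Tap2 (-2.16), the loading factor Tapbp (-0.86) and the trimming peptidase Erap1 (-2.62) were lower too. B2m, the light chain that pairs with H2-K1, was thus called higher in the same samples in which H2-K1 was called lower.

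**Figure D3:**
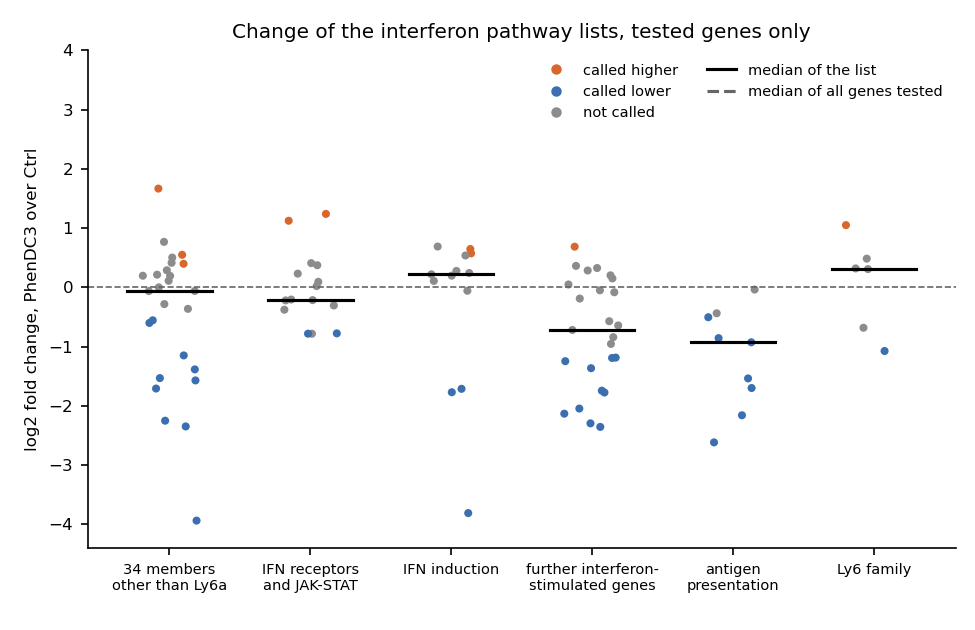
Log2 fold change of PhenDC3 over Ctrl for each tested gene of the 34 other members and of 5 further lists, with the median of each list as a black bar and the median of all genes tested as a dashed line at 0.01. Blue points (called lower) outnumber orange points (called higher) in the members, the further interferon-stimulated genes and antigen presentation, where the medians are -0.06, -0.72 and -0.93. Both colours occur 2 times in the receptor list (median -0.20), and the list of interferon induction has 2 orange and 3 blue points and a median of 0.22.

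Markers of other cell types also moved in these samples. Of 6 primitive endoderm markers, 5 were higher (Gata6, Gata4, Sox17, Foxa2 and Lama1), with a summed level of 271 to 332 CPM in Ctrl and 462 to 589 CPM in PhenDC3. Krt8 and Krt18, of 4 tested trophoblast markers, were higher. Eomes lay lower without overlap but was not called (log2 fold change -0.47 ± 0.20 SE, adjusted p = 0.0908). Cdx2 was not called either (-0.07 ± 0.49 SE). The list summed to 49.5 to 66.0 CPM in Ctrl and 99.1 to 150 CPM in PhenDC3. Most of that was Krt8 and Krt18, with means of 28.1 and 23.7 CPM in Ctrl and 65.9 and 57.0 CPM in PhenDC3. Of the fibroblast markers Pdgfra was higher and Thy1 lower, with Dcn at 0. Col1a1 and Col1a2 were not called (log2 fold changes 0.68 ± 0.38 and 1.64 ± 0.72 SE), and their groups overlapped. Of the blood and endothelium markers Cdh5 was higher and Cd34 and Tal1 lower. The ES markers Nanog, Klf4 and Tfcp2l1 were higher (log2 fold changes 1.22, 0.82 and 1.62) and Pou5f1 lower (-0.45). In all, 12 of 26 tested markers were called higher (46.2%, against 18.0% of all genes) and 4 lower (15.4%, against 18.7%), and 2 were lower without PhenDC3 replicate 1. Single libraries decided the calls of Gata6, Cdh5, Pdgfra, Cd34 and Pou5f1, which were lost in at least 1 removal (adjusted p = 0.0513 to 0.122). The part of these shifts in the changes of Ly6a and of the interferon genes was not tested.

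The SNS-seq lists were examined next, because origins often lie near the start of genes. The lists held 79377 to 144103 peaks, called in each replicate against a library of the same condition treated with RNase. A gene was counted when a peak overlapped the 2 kb on either side of a TSS. Of the 35 genes, 21, 15 and 12 had such a peak in the Ctrl lists and 21 and 17 in the PhenDC3 lists, against 51.4%, 48.6% and 31.0% and 51.7% and 36.9% of all genes. Of the 27 that passed the RNA-seq count filter, 63.0%, 48.1% and 33.3% had one in Ctrl and 63.0% and 44.4% in PhenDC3. Over all genes that passed it, the shares were higher in every list, at 67.2%, 64.6% and 39.2% and 64.3% and 46.0%. For the 35 genes, the means of the lists differed by 3.0 genes, and the ranges overlapped (exact permutation test, two-sided, p = 0.6, where 3 lists against 2 cannot go below 0.2). The difference moved with single lists, to 5.5 without Ctrl replicate 1, 1.0 without Ctrl replicate 3, 1.0 without PhenDC3 replicate 1 and 5.0 without PhenDC3 replicate 2. With equal numbers of peaks (79377) in each list, the difference changed sign. Read depth was not given with the lists.

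Bst2, Isg15, Parp14, Psmb8, Psmb9 and Rsad2 had a peak at the TSS in all 5 lists. The highest peak of Parp14 had a fold enrichment of 12.8, 15.3 and 13.1 in Ctrl and of 9.25 and 7.52 in PhenDC3. Isg15 (12.2, 7.63 and 7.56 against 4.95 and 5.05) and Rsad2 (11.8, 7.05 and 5.58 against 3.85 and 4.16) were also lower in both PhenDC3 lists than in any Ctrl list, and Psmb8 was higher (7.27, 4.01 and 2.71 against 10.7 and 9.01). Bst2 and Psmb9 overlapped between the conditions. Among the 4503 genes with a peak in all 5 lists, 23.5% were lower and 8.22% higher in both PhenDC3 lists than in every Ctrl list. The transcripts of Parp14 and Psmb8 both fell, while the enrichment at their TSS differed between the conditions in opposite directions. All lists of a condition were set against the same RNase-treated library, so a difference between those libraries would separate the conditions as well.

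**Figure D4:**
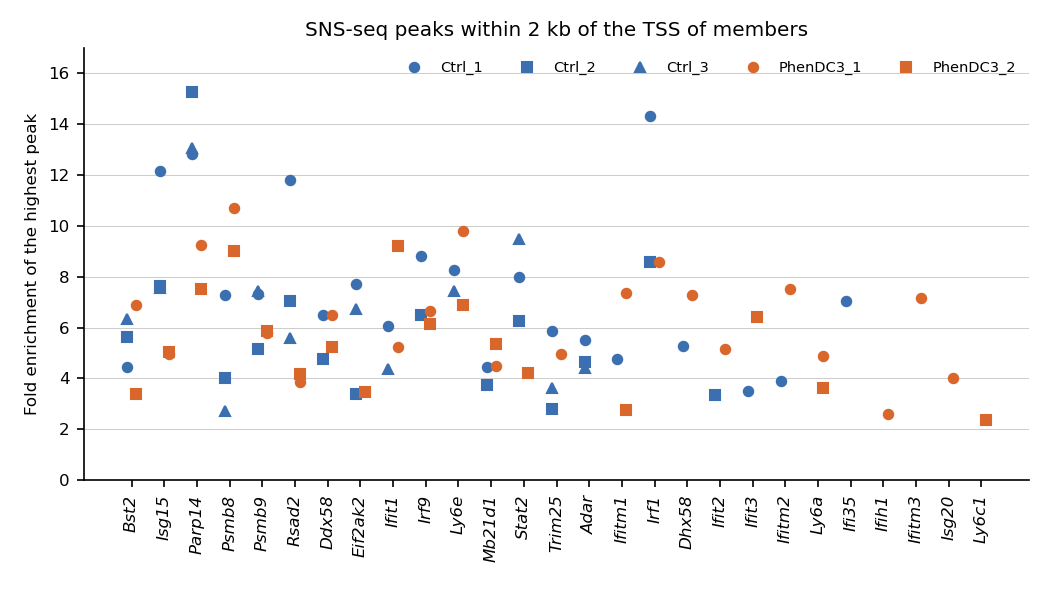
Fold enrichment over the RNase-treated library (1 per condition) of the highest SNS-seq peak within 2 kb of a TSS, for the 27 members with such a peak in at least 1 list, ordered by the number of lists. Blue symbols are the 3 Ctrl lists and orange symbols the 2 PhenDC3 lists, and a missing symbol means that the list had no such peak. The orange symbols lie below the blue ones at Isg15, Parp14 and Rsad2 and above them at Psmb8.

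Adar had a TSS peak in all 3 Ctrl lists and in neither PhenDC3 list, and its transcript level was not called. The pattern of at least 2 Ctrl lists and no PhenDC3 list was found at 6.20% of all genes. Ly6a showed the reverse pattern, a peak in both PhenDC3 lists and in no Ctrl list, which was found at 502 of 22823 genes. The peaks at Ly6a were however at different places. That of PhenDC3 replicate 1 lay upstream at chr15:75000028-75000316 with a fold enrichment of 4.88, its near edge 1997 bp from the TSS and just inside the window. That of PhenDC3 replicate 2 lay within the gene at chr15:74997424-74997714 with a fold enrichment of 3.61, over 98 bases of the second exon and the introns beside it. A gap of 2313 bp separated the peaks, and with a window of 1 kb only 1 list had a peak. No position near the Ly6a TSS was therefore shared by the PhenDC3 lists, and the nearest Ctrl peaks lay 8327, 9946 and 27028 bp away.

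**Figure D5:**
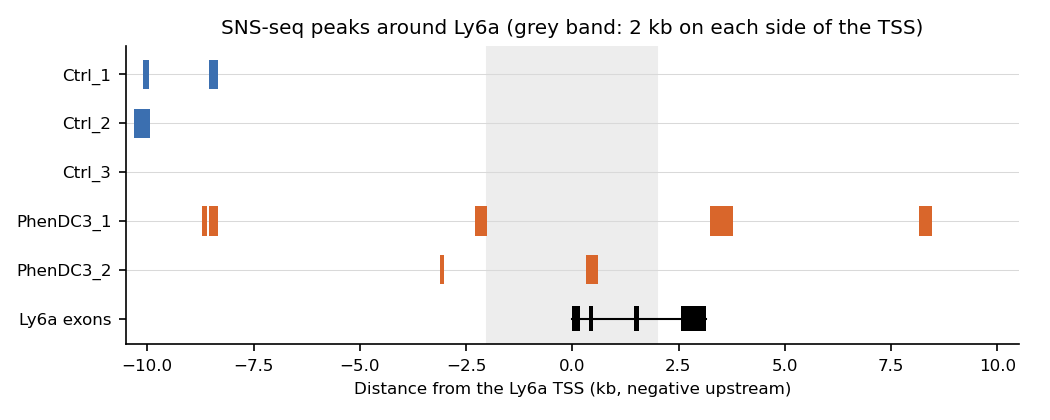
SNS-seq peaks within 10 kb of the Ly6a TSS in each of the 5 lists, by distance from the TSS in kb (negative upstream), with the exons of Ly6a in black and the 2 kb on each side of the TSS as a grey band. The PhenDC3 lists have 1 peak each that reaches the band, 2313 bp apart, and the Ctrl lists have none.

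The promoter entries of the 28 matched genes, searched over their whole length and not only the stretches printed above, were set beside the changes. An exact ISRE match was found in 12 of the 28 genes with a promoter (Stat2, Ddx58, Ifih1, Isg15, Ifit1, Ifit3, Rsad2, Eif2ak2, Bst2, Ifitm2, Ifitm3 and B2m), or 42.9%, against 3.99% of 27025 genes. Of the 9 members called lower that have a promoter, 2 held an ISRE match (Ddx58 and Bst2) and 5 a GAS match (Irf1, Ifit2, Ifi35, Bst2 and Psmb8). Over the 28 genes the GAS count was 9, or 32.1%, against 9.55% of all genes. The ISRE match of Ddx58 starts 3 bases after the TSS and so lies outside the stretch shown. Matches were thus found in genes that fell (Bst2), in a gene that rose (B2m) and in genes close to 0 counts in both groups (Isg15, Ifih1). ISRE and GAS matches can overlap, as in Bst2, and a match describes letters and not binding.

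The G-run pattern was counted because PhenDC3 binds G4. It was present in 7 of the 28 genes (Ly6c1, Irf3, Irf7, Ddx58, Ifit3, Isg20 and Psmb9), or 25.0%, against 20.4% of all genes and 31.9% of the tested genes with a promoter. Of the 9 genes called lower, 3 held it (Ddx58, Irf3 and Psmb9). In Ddx58 the pattern starts 45 bases upstream of the TSS and reads as G on the strand opposite to the gene. The members with the pattern included genes that fell, a gene that rose (Isg20) and genes that were not tested.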

How the data were processed

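RNA-seq (3 Ctrl, 3 PhenDC3) and SNS-seq peak lists (3 Ctrl, 2 PhenDC3) were used, and samples were grouped by their labels. TopHat2 2.1.1 and Bowtie2 2.2.9 had aligned the RNA reads and HTSeq 0.6.1p1 had assigned them to genes, and the values deposited by the authors are raw counts. The annotation and strand setting of the counting were not given in the sources used here, and antisense overlaps could therefore not be resolved. The SNS-seq reads had been aligned to mm10, and per replicate MACS2 2.1.0 peaks that overlap SICER regions were retained. The deposited lists give a fold enrichment, which is a ratio to the RNase-treated library, and a −log10 p of each peak. A deposited table of normalized pseudo-counts and the authors' own DESeq2 comparison (fold changes and p-values) were not used.

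Counts were fitted with edgeR 4.0.16 (quasi-likelihood, robust, relative log expression, filterByExpr) in R 4.3.3, without covariates, and p-values were adjusted by Benjamini-Hochberg over 13972 genes. On simulated data the fit recovered at least 94% of the genes changed 4-fold and at least 64% of those changed 2-fold. A gene that was not called may therefore still have changed. TMM, DESeq2 1.42.0, no count filter, the replicate number as a block and the removal of each library were alternatives. Counts were converted to CPM, and to RPKM with RefSeq exon lengths. Origin counts per list were compared by an exact permutation test (scipy 1.17.1). TSS and promoters were those of RefSeq on GRCm38.p6, the build of mm10. No pair of replicates was so alike as to be the same library. The members and gene lists were chosen with earlier results of these data known. All 35 members were named, and of the other lists the genes that were called with an absolute log2 fold change of at least 0.5, with Ifnar1, Ifnar2 and 3 genes on either side of Ly6a. The ES markers were all named, whatever their change. Cxcl10, Tap1, H2-D1, Ccl5, Eomes, Cdx2, Col1a1, Col1a2, the interferon genes, Pecam1, Ptprc and Dcn were named after their values were seen. A gene of the lists is not reported here.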

Additional observations from a re-analysis of the deposited data

How the results depend on the processing

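Over the 10 RNA-seq alternatives no called member changed direction. Of 260 values of the 26 tested members, 232 kept direction and side of the threshold, 14 lost the call, 6 gained it and 8, of 3 members called in no alternative, changed sign. Stat2 (log2 fold change 0.000607) went to -0.0134 with TMM, -0.00345 with DESeq2, -0.00343 without the count filter and -0.122 to 0.17 with a library left out. With a library left out Adar ranged from -0.15 to 0.0734 (without Ctrl replicate 3) and Tmem173 from -0.503 to 0.0115 (without PhenDC3 replicate 1). The members other than Ly6a called higher numbered 2 to 4 with a library left out, and those called lower 8 to 9. The further interferon pathway genes called higher numbered 3 to 7 with a library left out, the Ly6 family genes called higher 1 to 2, and the markers called lower 2 to 4. DESeq2 and the fit without a count filter each called 2 Ly6 family genes higher. With the replicate block, 7 members (3 without the block), 10 further pathway genes (5 without the block) and 2 Ly6 family genes were called higher. Over all 13972 genes tested, the block also raised the number called higher, from 2518 to 3797, and the number called lower, from 2617 to 3692. Same-numbered samples had correlated deviations of 0.0983, 0.627 and 0.486, not all over 0.1, so that the numbers were not taken as a pairing. Every sample nonetheless correlated best with its own number. The sample names of the counts also carry consecutive serial numbers for the Ctrl and PhenDC3 sample of each replicate number. Both are hints of replicate sets, and no label states a pairing. With equal numbers of peaks (79377) in each SNS-seq list, the difference in members with a TSS peak reversed to -0.667. The cause was not tested. With a list left out it ranged from 1.0 to 5.5. Allowing 1 mismatch gave 22 members with an ISRE, and loops of up to 12 bases gave 13 with a G-run pattern. Counts below about 10 in a library limit the untested genes and several called ones. Among the latter are Psmb8, Oasl2, Isg20, Zbp1, Irf8, Tlr3, Gbp2, Gbp3, Gbp7, Tap2, Erap1 and Tal1. Depth was unknown for SNS-seq.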
